A study of Mus musculus with 32 samples.

Results

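A set of 10 genes that mark astrocytes or reactive astrocytes was followed across brain arteries of 4 groups of mice. The members were the rows of the read count table whose Ensembl identifiers map to *Gfap*, *Vim*, *Aqp4*, *Slc1a2*, *Slc1a3*, *Aldh1l1*, *Aldoc*, *S100b*, *Serpina3n*, and *Lcn2*, that is, 10 of 55357 rows. All 10 passed the filter on low counts in every comparison. The study asked what drives the arterial defects of CADASIL, an inherited small vessel disease caused by *NOTCH3* mutations. It weighed reduced or increased NOTCH3 activity against a new effect of the accumulated extracellular domain of NOTCH3. RNA of dissected brain arteries was sequenced to explore whether NOTCH3 activity was increased. The groups were Notch3-/- mice and Notch3+/+ mice aged 3 months, and TgNotch3R169C mice and WT (non-Tg) mice aged 12 months, with 8 libraries per group and no treatment.

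Notch3-/- mice lack *Notch3* in every cell. TgNotch3R169C mice carry a genomic transgene of rat *Notch3* with the mutation on the X chromosome and keep their own mouse *Notch3*, and all lines were on a C57BL/6 background. The controls were littermates of each mutant, so the 2 control groups differ in line as well as in age. In counts scaled to library size (CPM), *Notch3* itself was 83.5 ± 12.0 in the 3-month controls against 16.2 ± 1.82 in Notch3-/- mice, and 73.1 ± 8.18 in the 12-month controls against 182 ± 34.5 in TgNotch3R169C mice (mean ± SD, n = 8). Libraries held 20289487 to 54481934 counts. A group of 7 libraries stood apart by their choroid plexus transcripts: *Ttr*, which encodes transthyretin, measured 7889 to 23130 CPM in these 7 and 14.0 to 329 CPM in the other 25. These were 4 of the WT, 2 of the TgNotch3R169C, 1 of the Notch3-/-, and 0 of the Notch3+/+ libraries. For several members, levels or fold changes are given with and without them, while correlations were computed over all 32 libraries.

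Astrocytes wrap brain vessels with processes called endfeet. AQP4 is the water channel of the endfoot membrane, SLC1A2 and SLC1A3 clear glutamate from the extracellular space, ALDH1L1 is a folate enzyme used to label astrocytes, ALDOC is a glycolytic aldolase, and S100B is a calcium-binding protein. GFAP and vimentin form the intermediate filaments that increase when astrocytes become reactive after injury, and *Serpina3n*, a secreted protease inhibitor, and *Lcn2*, an iron-siderophore carrier, are induced in reactive astrocytes in inflammation. Several of these genes are not limited to astrocytes: *Vim* is abundant in endothelial, mural, and fibroblast-like cells, *S100b* is also made by oligodendrocyte-lineage cells, and *Lcn2* by neutrophils and inflamed endothelium. In bulk samples, fewer cells of a type and less RNA per cell cannot be told apart.

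STAT3 and NF-kB are transcription factors of the reactive response. The bases upstream of the RefSeq start sites (GRCm38.p6) were searched on both strands for the STAT core TTCNNNGAA, an NFI and an NF-kB motif, and TATAAA. Promoter windows were used for 9 members and were read from the 250 bases before the start, with a second start for *Aldoc*. Of all 32851 windows of this length, 7.02% held the STAT core, 0.0365% the NFI motif, 3.9% the NF-kB motif, and 12.4% TATAAA. Among the members, the STAT core was found once for *Slc1a3* and at 2 places before the second start of *Aldoc*, the NF-kB motif once for *Vim*, TATAAA for *Vim* and *Slc1a3*, and the NFI motif in none. TATAAA lay 32 to 27 bases before the start of *Vim*. For *Slc1a3* it was on the opposite strand, 161 to 156 bases before the start. All 250 bases of the *Vim* window lie in annotated *Vim* exons. The upstream windows shown are those of *Gfap*, as the classical reactive marker, *Slc1a3*, as a member of the set that varied together, *S100b*, which differed with age, and *Serpina3n*, which varied most between mice after *Lcn2*. None of these windows overlaps an annotated exon in GENCODE vM21. For *Slc1a3* and *Serpina3n* the last 30 bases of the RefSeq window, just after the start, were not found in a GENCODE transcript, so the start may differ between annotations. Capitals mark the STAT core.
Gfap, chr11:102897201-102897450, minus strand: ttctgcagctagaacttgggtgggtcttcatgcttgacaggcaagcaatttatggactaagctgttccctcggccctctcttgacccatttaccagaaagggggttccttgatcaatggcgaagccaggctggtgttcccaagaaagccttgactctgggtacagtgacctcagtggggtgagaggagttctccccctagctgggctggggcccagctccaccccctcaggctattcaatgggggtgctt
Slc1a3, chr15:8710808-8711057, minus strand: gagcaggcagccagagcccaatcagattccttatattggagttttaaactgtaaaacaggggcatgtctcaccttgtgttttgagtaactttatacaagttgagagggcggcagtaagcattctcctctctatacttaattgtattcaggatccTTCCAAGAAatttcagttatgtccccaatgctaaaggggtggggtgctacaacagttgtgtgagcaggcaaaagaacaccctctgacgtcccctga
S100b, chr10:76253586-76253835, plus strand: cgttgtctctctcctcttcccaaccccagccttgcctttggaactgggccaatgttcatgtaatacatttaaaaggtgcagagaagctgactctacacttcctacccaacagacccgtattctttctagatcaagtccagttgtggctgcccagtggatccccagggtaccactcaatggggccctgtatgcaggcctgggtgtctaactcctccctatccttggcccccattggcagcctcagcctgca
Serpina3n, chr12:104406458-104406707, plus strand: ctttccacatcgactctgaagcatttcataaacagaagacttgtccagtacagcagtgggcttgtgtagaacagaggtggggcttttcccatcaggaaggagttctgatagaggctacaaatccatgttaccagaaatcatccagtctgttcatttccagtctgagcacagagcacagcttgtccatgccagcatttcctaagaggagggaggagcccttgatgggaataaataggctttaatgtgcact
Of the 250 bases before the second start of *Aldoc*, 136 lie in annotated *Aldoc* exons. The stretches of 29 bases around the 2 STAT cores of *Aldoc* are shown for comparison with *Slc1a3*, whose level followed that of *Aldoc*.
Aldoc, chr11:78324064-78324092, plus strand: aggggccagaTTCAGTGAAagaagagctg
Aldoc, chr11:78324105-78324133, plus strand: tggcagcagtTTCCAGGAAgacctgtggc
A match in these windows is a description of the letters and not a binding site.

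Per length of exon, the filament genes were the most abundant members. *Vim* measured 184.4 ± 23.1 CPM per kilobase and *Gfap* 156 ± 29.8 (mean ± SD over all 32 libraries). *S100b* (64.6 ± 11.02), *Aldoc* (63.4 ± 15.0), *Slc1a3* (51.9 ± 7.18), and *Slc1a2* (45.6 ± 13.5) followed, with neighbors in this order lying within 1 SD of each other. *Aqp4* (33.2 ± 6.597) and *Aldh1l1* (14.6 ± 2.34) were lower. *Serpina3n* (9.46 ± 7.17) and *Lcn2* (6.56 ± 10.2) were the lowest and overlapped widely. The lowest raw count of any member in any library was 112 reads, for *Lcn2*, so no member was near the limit of detection. The 32 genes of a list of homeostatic astrocyte genes summed to 27530 to 35140 CPM in every library, which places astrocyte transcripts in all of these artery samples, and the 12 neuronal genes of a second list summed to 356.5 to 1944 CPM.

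**Figure D1:**
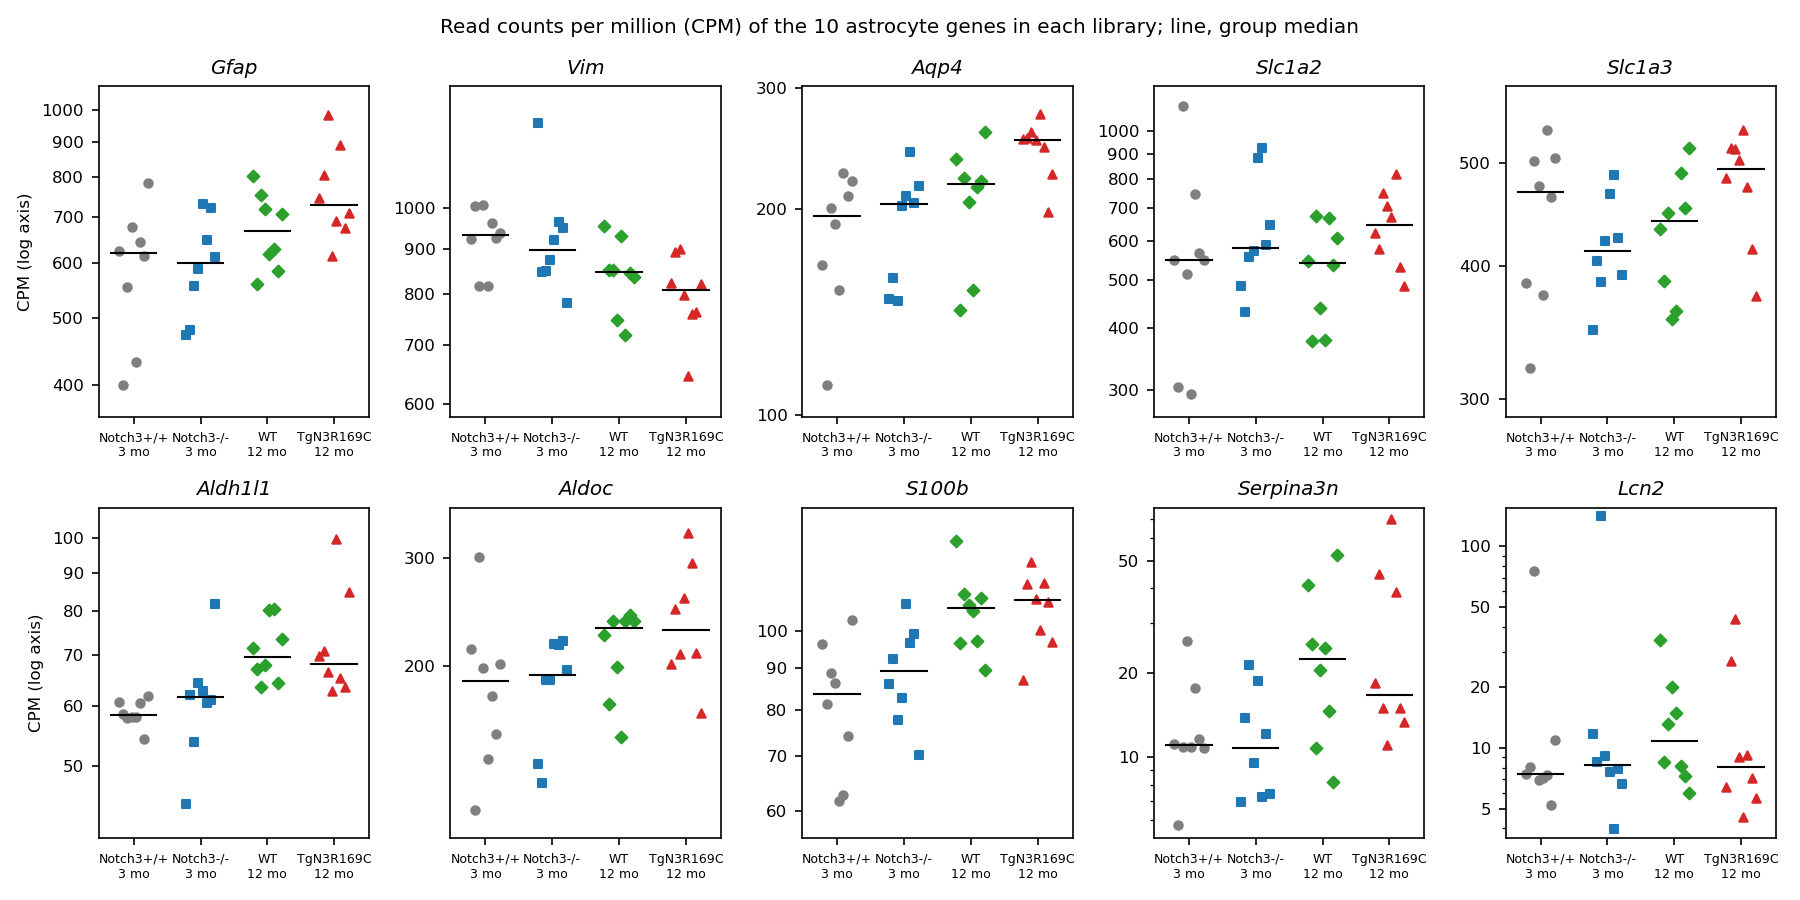
CPM of the 10 astrocyte genes (vertical log axes, each with its own range) in each of the 32 libraries, with 8 points per group in order of replicate number and a line at the group median. Groups overlap for every mutant and its control, *Aldh1l1* of Notch3+/+ mice (54.4 to 62.0 CPM) lies below that of WT mice aged 12 months (63.6 to 80.5 CPM), and 1 Notch3-/- library stands at 142 CPM of *Lcn2*.

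The comparison of Notch3-/- with Notch3+/+ mice at 3 months asked what loss of NOTCH3 did to the arteries. No member passed the test. By edgeR's quasi-likelihood test with Benjamini-Hochberg adjustment over 17714 genes, 0 of 10 passed an adjusted p of 0.05, while 0.649% of all genes passed (115 genes). An unadjusted p below 0.05 was found for 0 of 10 members, against 7.69% of all genes. DESeq2 and limma voom also called 0 members. Groups did not overlap for 0 of 10 members, against 0.322% of all genes. Of the members, 7 had a higher and 3 a lower fitted level in Notch3-/- mice, with a median log2 fold change of 0.04 beside -0.0011 for all genes.

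*Gfap* ranged from 400.4 to 783 CPM (median 621) in Notch3+/+ mice and from 473 to 732 CPM (median 601) in Notch3-/- mice. The Notch3-/- range lay inside that of the controls, and the log2 fold change was 0.03 (95% CI -0.25 to 0.31, SE 0.13). *Vim* ranged from 816 to 1008 CPM (median 933) and from 781 to 1251 CPM (median 898), with a log2 fold change of 0.01 (95% CI -0.16 to 0.18). A single Notch3-/- library held the value of 1251 CPM, and the next highest Notch3-/- library lay within the control range. The intervals of both filament genes were narrow, ending at 1.24-fold for *Gfap* and 1.14-fold for *Vim*.

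*Aqp4* ranged from 110.5 to 225 CPM (median 195) in Notch3+/+ mice and from 147 to 242 CPM (median 203) in Notch3-/- mice, a fold of 1.04 (95% CI 0.844 to 1.28). The glutamate transporters had folds of 1.096 for *Slc1a2*, with a wider interval (95% CI 0.766 to 1.57), and 0.936 for *Slc1a3* (95% CI 0.808 to 1.08). *Slc1a2* was the noisiest of the abundant members, from 294 to 1123 CPM among the controls alone. The folds of the enzymes and of *S100b* were 1.05 for *Aldh1l1* (95% CI 0.926 to 1.18), 0.993 for *Aldoc* (0.775 to 1.27), and 1.09 for *S100b* (0.925 to 1.29). The 2 groups overlapped in *S100b* over most of their range (61.6 to 103 CPM in controls and 70.2 to 108 CPM without NOTCH3).

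The induced genes were less precisely measured. *Serpina3n* had a median of 11.02 CPM in Notch3+/+ mice (5.73 to 25.8) and of 10.8 CPM in Notch3-/- mice (6.91 to 21.3), with a fold of 0.932 (95% CI 0.607 to 1.43). *Lcn2* had a median of 7.41 CPM (5.20 to 75.6) and 8.21 CPM (3.97 to 142), and its fold of 1.53 had a 95% CI from 0.469 to 4.99. One library in each group was far above the others in *Lcn2*, replicate 3 in both, and the other 7 Notch3-/- libraries reached 11.7 CPM at most. Without the Notch3-/- replicate 3 the log2 fold change of *Lcn2* was -1.02 (adjusted p = 0.762, edgeR) in place of 0.61, so the direction rested on that library.

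The comparison of TgNotch3R169C with WT mice at 12 months asked the same of the CADASIL mutation. Again no member passed the test (0 of 10, against 0.113% of 17731 genes, or 20 genes, by edgeR's quasi-likelihood test), and groups did not overlap for 0 of 10 members, against 0.141% of all genes. DESeq2 and limma voom also called 0 members, and 1 member, *Aqp4*, had an unadjusted p below 0.05, against 7.27% of all genes. Of the members, 9 had a higher and 1 a lower fitted level in TgNotch3R169C mice, with a median log2 fold change of 0.157 beside -0.0074 for all genes. Of the 12 neuronal genes 11 also had a higher fitted level in these mice (median log2 fold change 0.31, 0 called), and their summed level was 554 to 1621 CPM in TgNotch3R169C and 356.5 to 1259 CPM in WT mice, with none at 0. With the mean of the neuron list as a covariate the members' median was 0.055, and without the 6 choroid-rich libraries of these groups it was 0.033.

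*Aqp4* ranged from 142 to 259 CPM (median 218) in WT mice and from 198 to 275 CPM (median 252) in TgNotch3R169C mice. Of the TgNotch3R169C libraries, 6 lay between 225 and 259 CPM, and 2 WT libraries, both rich in choroid plexus transcripts, lay below all TgNotch3R169C libraries. The fold was 1.18 (95% CI 1.01 to 1.39), with an unadjusted p of 0.041 and an adjusted p of 0.679 in edgeR's quasi-likelihood test, and the log2 fold change of 0.24 was 0.06 without the choroid-rich libraries. *Slc1a2* ranged from 377 to 674.5 CPM (median 542) and from 486.5 to 822 CPM (median 648), a fold of 1.22 (95% CI 0.993 to 1.5). *Slc1a3* had a fold of 1.11 (95% CI 0.972 to 1.26). Outside the choroid-rich libraries, the medians of *Slc1a2* were 579 CPM in WT and 665 CPM in TgNotch3R169C mice. Those of *Slc1a3* were 451 and 494 CPM. For the water channel and both transporters the groups overlapped in part of their range.

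*Gfap* had its highest group mean in TgNotch3R169C mice, from 616 to 984 CPM (median 728) against 560.3 to 804 CPM (median 669) in WT mice, and its log2 fold change of 0.18 (95% CI -0.03 to 0.40, SE 0.10) did not pass the test (adjusted p = 0.721, edgeR). *Vim* was the only member with a lower fitted level, from 645 to 900.1 CPM (median 809) against 719 to 955 CPM (median 848), a log2 fold change of -0.07 (95% CI -0.23 to 0.08). All 8 smooth muscle genes also had a lower fitted level (median log2 fold change -0.25, 0 called). *Aldoc* had a fold of 1.12 (95% CI 0.928 to 1.36), *Aldh1l1* of 1.02 (0.902 to 1.16), and *S100b* of 1.01 (0.896 to 1.129). *Aldh1l1* and *S100b*, the members that differed with age, thus had folds close to 1 between TgNotch3R169C and WT mice.

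*Serpina3n* and *Lcn2* did not separate the groups. *Serpina3n* ranged from 8.17 to 52.4 CPM (median 22.4) in WT mice and from 11.02 to 70.2 CPM (median 16.7) in TgNotch3R169C mice, a fold of 1.14 (95% CI 0.603 to 2.17). The TgNotch3R169C group had the higher mean but the lower median, since 3 libraries held 38.8 to 70.2 CPM and the other 5 held 11.02 to 18.4 CPM. *Lcn2* ranged from 6.02 to 34.2 CPM (median 10.9) and from 4.58 to 43.5 CPM (median 8.08), a fold of 1.002 (95% CI 0.483 to 2.079). The direction of *Lcn2* turned with the method, since the medians and limma voom (log2 fold change -0.18) put TgNotch3R169C mice lower.

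**Figure D2:**
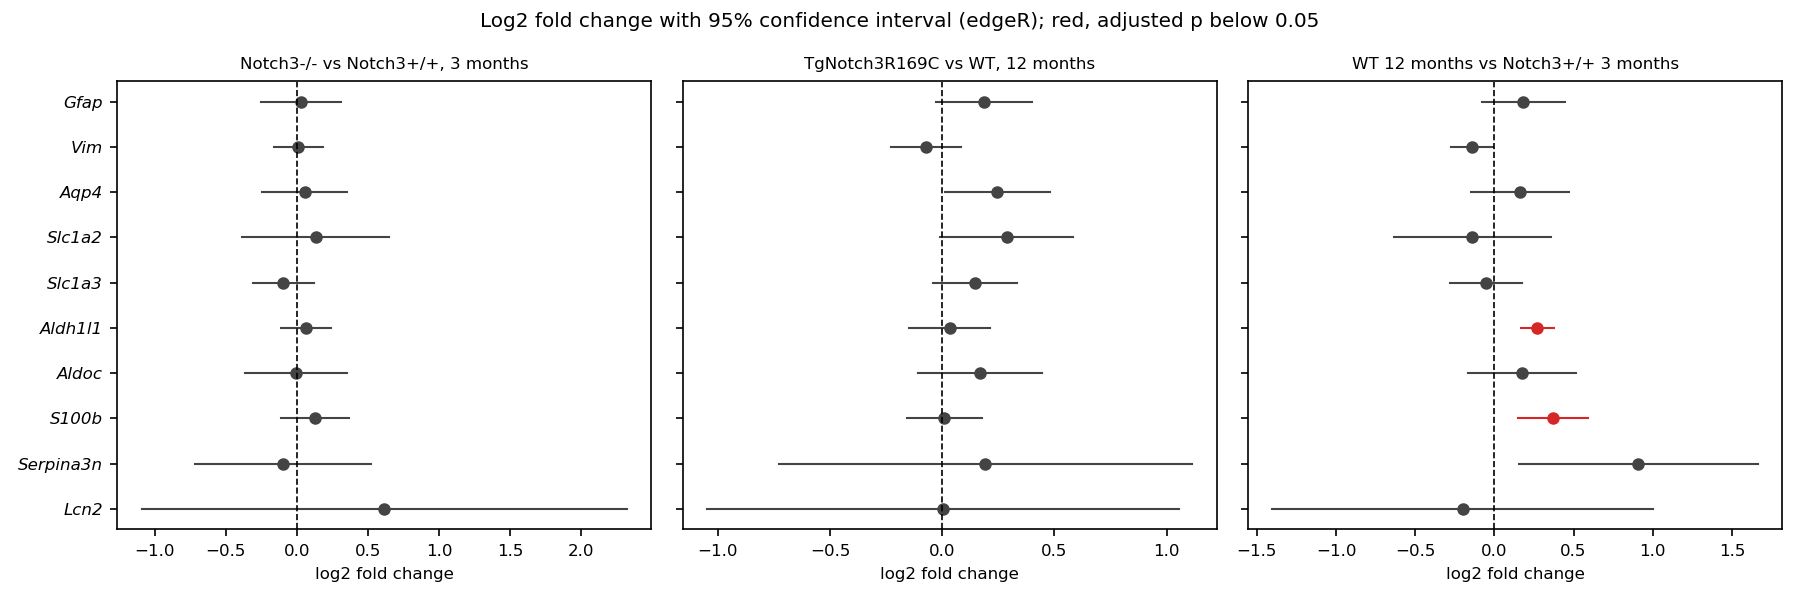
Log2 fold change (horizontal axis) of each member with its 95% confidence interval from edgeR, in 3 panels for Notch3-/- against Notch3+/+, TgNotch3R169C against WT, and WT at 12 months against Notch3+/+ at 3 months, with genes passing an adjusted p of 0.05 in red. All 10 intervals of the first panel and 9 of 10 of the second span 0, and *Aldh1l1* (0.27) and *S100b* (0.37) are the red genes of the third.

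The 2 mutant effects were then compared in a fit of all 4 groups. No member passed this test (0 of 10 called by edgeR's quasi-likelihood test, against 0.35% of 18555 genes), 0 members had an unadjusted p below 0.05, against 8.62% of all genes, and the DESeq2 and limma voom fits called 0 members as well. *Slc1a3* had the smallest p, with a log2 fold change of -0.10 in Notch3-/- mice and 0.15 in TgNotch3R169C mice, a difference of 0.25 (SE 0.14, 95% CI -0.03 to 0.52, adjusted p = 0.617). The members' median difference was 0.16 beside 0.00061 for all genes, and it was 0.015 without Notch3+/+ replicate 3 and 0.235 without Notch3+/+ replicate 2. Age and line differ between the pairs and cannot be told apart from the mutation.

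The comparison of WT mice aged 12 months with Notch3+/+ mice aged 3 months is the 1 comparison of ages, with line confounded. Of the members, *Aldh1l1* and *S100b* were higher at 12 months (2 of 10 called by edgeR's quasi-likelihood test) and none was called lower. Called genes made up 7.92% of the 17643 tested (1398 genes), 3.87% higher and 4.05% lower. Groups did not overlap for 1 of 10 members, *Aldh1l1*, against 1.24% of all genes. Of the 10, 6 had a higher and 4 a lower fitted level, with a median log2 fold change of 0.168 beside 0.0026 for all genes. An unadjusted p below 0.05 was found for 4 members, also *Vim* and *Serpina3n*, against 24.2% of all genes.

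*Aldh1l1* was narrow in Notch3+/+ mice, from 54.4 to 62.0 CPM (median 58.4), and lay between 63.6 and 80.5 CPM (median 69.8) in WT mice aged 12 months. Every WT library aged 12 months was above every Notch3+/+ library. The fold was 1.21 (95% CI 1.12 to 1.30, adjusted p = 0.00414 by edgeR's quasi-likelihood test). *Aldh1l1* was also high where choroid plexus transcripts were: it measured 67.2 to 99.6 CPM (median 80.5) in the 7 choroid-rich libraries and 44.7 to 73.6 CPM (median 62.0) in the other 25. Of the 8 choroid plexus markers 6 were called higher at 12 months and none was at 0, and their summed level was 318.5 to 665 CPM in Notch3+/+ and 265 to 25920 CPM in WT mice. Without the 4 choroid-rich WT libraries, *Aldh1l1* remained higher at 12 months (63.6 to 73.6 CPM), with a log2 fold change of 0.21 and an adjusted p of 0.0389 by the same test. With all 4 groups in one fit the adjusted p was 0.0551, and the call was lost.

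*S100b* ranged from 61.6 to 103 CPM (median 83.8) in Notch3+/+ mice and from 89.5 to 129 CPM (median 107) in WT mice aged 12 months, with overlap between the groups. The fold was 1.29 (95% CI 1.11 to 1.51, adjusted p = 0.041 by edgeR's quasi-likelihood test). Oligodendrocyte genes moved with it: all 8 of the list had a higher fitted level at 12 months and 3 were called (*Cnp*, *Ermn*, and *Mag*, all of myelin-forming cells), with a median log2 fold change of 0.64. Their summed level was 563 to 1444 CPM in Notch3+/+ and 1082 to 1600 CPM in WT mice, and none was at 0 in any group. The part of oligodendrocytes in the change of *S100b* was not tested. The call of *S100b* sat near the threshold: it was kept in the 5 of 16 fits that left out Notch3+/+ replicate 1, 3, or 8 or WT replicate 2 or 8, and the adjusted p was 0.0538 to 0.0832 without any 1 of the other libraries and 0.124 without the choroid-rich libraries, at a larger log2 fold change of 0.43. In TgNotch3R169C mice, also aged 12 months, *S100b* measured 86.95 to 122 CPM (median 109).

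*Serpina3n* had the largest difference with age of the members, with a median of 11.02 CPM (5.73 to 25.8) at 3 months and 22.4 CPM (8.17 to 52.4) at 12 months, a fold of 1.88 (95% CI 1.11 to 3.17). Of the 8 WT libraries 5 exceeded 7 of the 8 Notch3+/+ libraries, but the adjusted p of 0.124 (edgeR) did not pass. *Vim* had a log2 fold change of -0.14 (95% CI -0.27 to -0.01, adjusted p = 0.186), beside smooth muscle genes of which 8 of 8 were called lower (median log2 fold change -0.89). *Gfap* (fold 1.134, 95% CI 0.945 to 1.36), *Aqp4* (1.12, 0.903 to 1.39), *Aldoc* (1.128, 0.892 to 1.43), *Slc1a2* (0.907, 0.644 to 1.28), and *Slc1a3* (0.965, 0.825 to 1.128) had intervals that included no change. In the 4 WT libraries not rich in choroid plexus transcripts the medians were 730 CPM for *Gfap*, 229 for *Aqp4*, and 237 for *Aldoc*. The Notch3+/+ medians were 621, 195, and 189 CPM. For *Slc1a2* and *Slc1a3* these WT medians were 579 and 451 CPM, against 549.5 and 470 CPM in Notch3+/+ mice. None of these genes was called in any alternative fit. *Lcn2* had a fold of 0.871 (95% CI 0.378 to 2.004) although its median was higher at 12 months (10.9 against 7.41 CPM), because 1 Notch3+/+ library held 75.6 CPM. DESeq2, which by default replaces such outlying counts, gave a log2 fold change of 0.85 and an adjusted p of 0.0422 for *Lcn2*, and -0.20 with the replacement turned off.

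**Figure D3:**
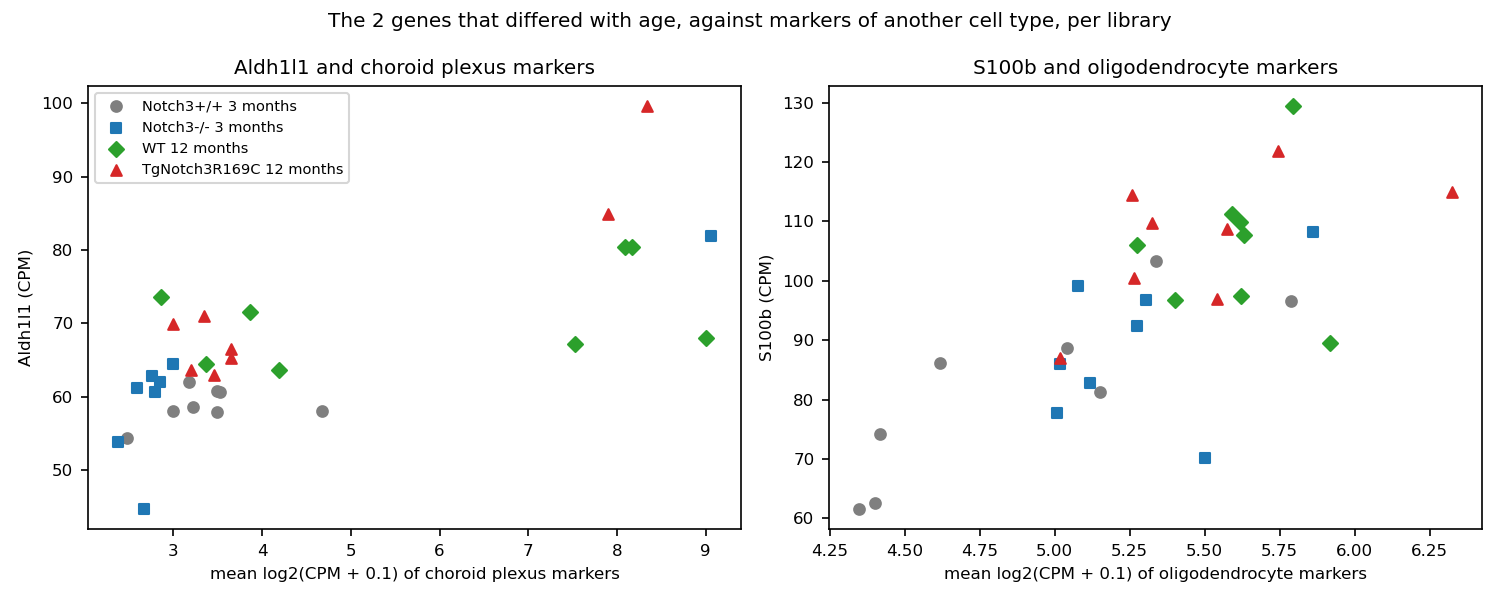
Left, CPM of *Aldh1l1* against the mean log2(CPM + 0.1) of 8 choroid plexus markers, and right, CPM of *S100b* against that of 8 oligodendrocyte markers, 1 point per library and 1 color and shape per group. On the left 7 libraries form a separate cluster above 7.52 on the horizontal axis, where *Aldh1l1* is 67.2 CPM or more, and on the right *S100b* is higher in libraries with more oligodendrocyte transcripts (r = 0.58 after groups were centered).

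The group means were then put in order. For *Gfap*, *Aqp4*, *Aldh1l1*, and *S100b* the order from low to high was Notch3+/+, Notch3-/-, WT, and TgNotch3R169C, and for *Vim* it was TgNotch3R169C, WT, Notch3+/+, and Notch3-/-. *Aldoc* and *Serpina3n* had the same order but for the 2 groups of 3 months, which were exchanged. Adjacent means in these orders differed by less than the largest SD of the 4 groups for 29 of 30 adjacent pairs, the exception being the step of *S100b* from Notch3-/- to WT. From the lowest to the highest group mean the step was 1.15-fold for *Slc1a3*, 1.16-fold for *Vim*, 1.22-fold for *Slc1a2*, and 1.33-fold for *Aqp4*, and reached 2.33-fold for *Serpina3n*.

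The members differed more in how much they varied between mice of a group. *Lcn2* had a within-group SD of 1.21 on the log2 scale, at percentile 98.7 of 18555 genes, and *Serpina3n* 0.80, at percentile 95.5. The abundant members were less variable, from 0.43 for *Slc1a2* (percentile 78.8) to 0.16 for *Vim* (percentile 40.1), beside a median of 0.20 for all genes. *Aldh1l1* (0.18), *Slc1a3* (0.20), and *S100b* (0.20) were close to that median.

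Within groups, a set of members rose and fell together from library to library. After each group was centered on its mean, Pearson's r of log2(CPM + 0.1) over the 32 libraries was 0.83 for *Aqp4* and *Slc1a3* (Spearman's rho 0.79), 0.81 for *Slc1a2* and *Aldoc* (rho 0.72), 0.78 for both glutamate transporters (rho 0.78), 0.75 for *Aqp4* and *Slc1a2* (rho 0.77), and 0.69 for *Slc1a3* and *Aldoc* (rho 0.61). Permutation tests within groups gave an adjusted p of 0.00015 for the first 3 of these Pearson correlations, from an unadjusted p of 1e-05, the smallest that 100000 permutations can give, 0.00045 for *Aqp4* and *Slc1a2*, and 0.000514 for *Slc1a3* and *Aldoc*. Of the 45 pairs of members, 11 passed an adjusted p of 0.05 by r and 10 by both r and rho, and these 10 were the pairs among *Aqp4*, *Slc1a3*, *Slc1a2*, *Aldoc*, and *Gfap*. With the 2 libraries farthest from the median left out, these 5 pairs kept r between 0.62 and 0.81, and within single groups r ranged from 0.61 to 0.96. *Gfap* joined the set with r of 0.69 with *Aqp4* (rho 0.60, adjusted p = 0.00045), 0.58 with *Slc1a2*, 0.55 with *Slc1a3*, and 0.50 with *Aldoc*. Its r varied more between single groups, from 0.28 to 0.84 with *Aqp4*, from 0.47 to 0.78 with *Slc1a2*, from 0.16 to 0.79 with *Slc1a3*, and from -0.015 to 0.93 with *Aldoc*. *Vim* was not part of it (r = 0.11 with *Gfap*), and its r of -0.53 with *Aldh1l1* (adjusted p = 0.0475) was -0.31 without the 2 farthest libraries and had a rho of -0.21 (adjusted p = 0.442), so it rests on those libraries.

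**Figure D4:**
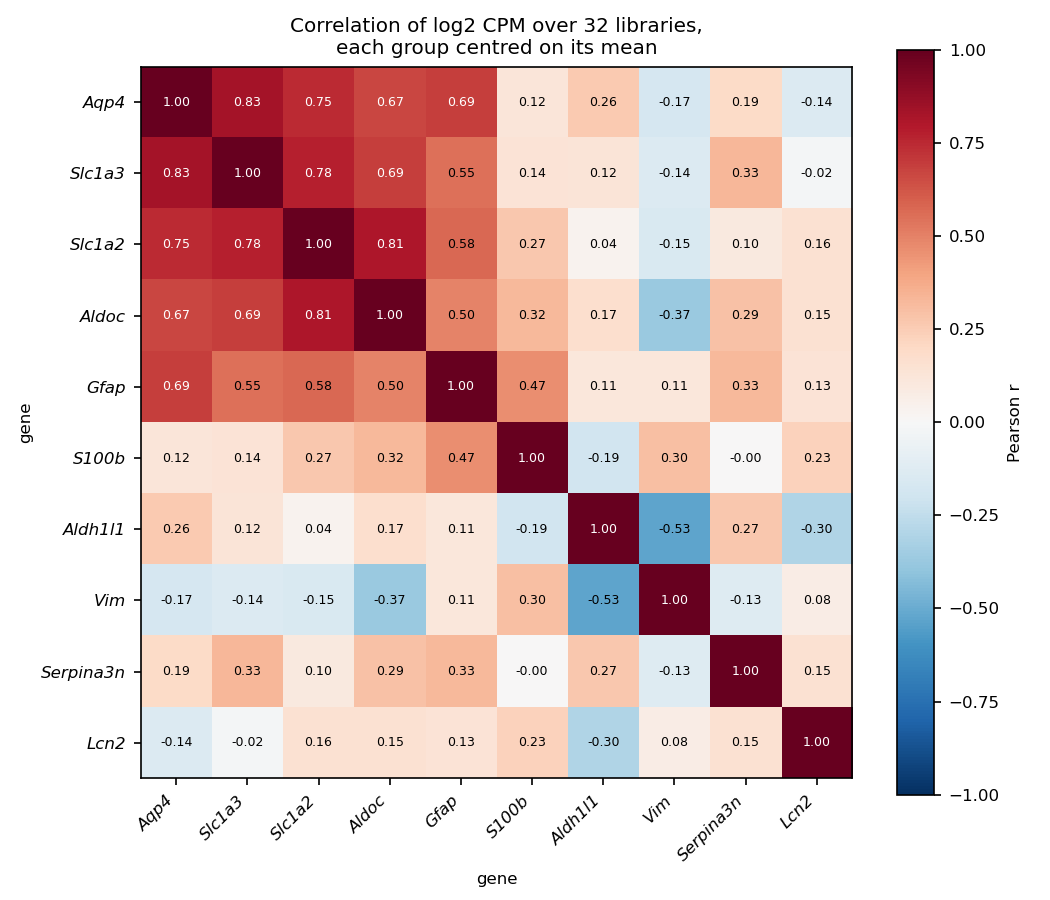
Pearson r between members (rows and columns) over 32 libraries, from log2(CPM + 0.1) after each group was centered on its mean, with blue for negative and red for positive values. *Aqp4*, *Slc1a3*, *Slc1a2*, *Aldoc*, and *Gfap* form a block of r from 0.50 to 0.83, and *Vim*, *Serpina3n*, and *Lcn2* stand outside it.

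The same libraries differed in transcripts of other cells. Of 70 relations between a member and a list of marker genes of another cell type, 9 passed by r and 8 by both r and rho. *Aldoc* (r = 0.85, rho 0.85, adjusted p = 0.0007 by permutation) and *Slc1a2* (r = 0.69, rho 0.61, adjusted p = 0.00163) followed the neuronal list, and their r was 0.80 and 0.56 without the 2 farthest libraries. *Aldoc* was lower where fibroblast genes were higher (r = -0.63, rho -0.58, adjusted p = 0.0035). *Vim* followed the microglia and macrophage (r = 0.67, rho 0.61), smooth muscle (r = 0.67, rho 0.61), and endothelial lists (r = 0.59, rho 0.70), with adjusted p values of 0.00193, 0.00163, and 0.0035 for r by permutation. It was lower where neuronal genes were higher (r = -0.52, adjusted p = 0.0185, and rho -0.48, adjusted p = 0.057). *S100b* followed the oligodendrocyte list (r = 0.58, rho 0.54, adjusted p = 0.0191), with r from 0.014 to 0.83 in single groups. *Lcn2* followed the neutrophil list (r = 0.56, rho 0.77, adjusted p = 0.0053). Choroid plexus levels fell in 2 separate clusters, so no pooled correlation was computed with them.

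The genes most like each member by the same group-centered r were then read from all 18555 genes. *Aqp4* and *Slc1a3* shared their closest genes, *Ntsr2*, a neurotensin receptor of astrocytes, *Disp3*, and *Bcan*, the proteoglycan brevican, with r from 0.82 to 0.87 for *Aqp4* and from 0.84 to 0.86 for *Slc1a3*. *Aldoc* was closest to *Hepacam*, an astrocyte adhesion molecule (r = 0.91), and then to *Sfxn5* (0.91) and *Fmn2* (0.91), and *Slc1a2* to *Gm6145*, *Tagln3*, and *Cspg5* (0.88 each). *Gfap* was closest to *Padi2* (0.81), *Rftn2* (0.78), and *Fxyd6* (0.75), and *Vim* to *Arpc1b* (0.89), an actin-nucleation subunit, *Cav1* (0.88), the caveolar coat protein, and *Ilk* (0.87), the integrin-linked kinase. *Aldh1l1* was closest to *Pcx* (0.83), pyruvate carboxylase, *Slc38a3* (0.81), and *Frmpd1* (0.81). In the 4 choroid-rich WT libraries *Pcx* measured 89.5 to 108.5 CPM and *Slc38a3* 375 to 429 CPM. In the other 4 WT libraries they measured 84.7 to 89.6 and 328.5 to 355 CPM. *Frmpd1* measured 18.5 CPM in the choroid-rich Notch3-/- library and at most 8.65 CPM in the others of that group. These correlations were not recomputed without the choroid-rich libraries, and the part of choroid plexus in them was not tested. *S100b* was closest to *Slc2a6* (0.70), *Sec14l5* (0.70), and *Gjc3* (0.69), a connexin of oligodendrocytes.

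*Serpina3n* did not follow the other members. Its closest genes were *Npy*, neuropeptide Y (r = 0.89), *Frzb*, a secreted WNT antagonist (0.86), and *Prss56* (0.82), which are known from olfactory ensheathing glia, the cells that wrap olfactory axons. *Npy* ranged from 0.92 to 57.7 CPM and *Frzb* from 11.4 to 86.9 CPM over the 32 libraries, and the TgNotch3R169C library with the most *Serpina3n* (70.2 CPM) also held the most *Npy*. Chosen after these values were seen, other genes of that glia or of the olfactory nerve had r of 0.80 (*Fabp7*), 0.69 (*Omp*, the marker protein of olfactory neurons), 0.66 (*Sox10*), and 0.49 (*Mybpc1*). The part of olfactory tissue in the level of *Serpina3n* was not tested. Other genes of the *Serpina3* cluster, which are close copies, were near 0, and the 10 listed summed to 0.749 to 5.21 CPM. How reads shared between these copies were counted is not given in the sources used here, and the level of *Serpina3n* is uncertain to that extent.

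*Lcn2* was low in most mice and high in a few. In 6 libraries it measured 20.03 CPM or more (141.7, 75.6, 43.5, 34.2, 26.9, and 20.03 CPM), and they came from all 4 groups, with 1 Notch3-/-, 1 Notch3+/+, 2 TgNotch3R169C, and 2 WT libraries. The other 26 libraries lay between 3.97 and 14.9 CPM. The genes most like *Lcn2* were *Ackr1*, the chemokine receptor of venular endothelium (r = 0.84), *Lgals3*, which encodes galectin-3 (0.77), and *Sbsn* (0.77). *Ackr1* measured 19.1 to 27.7 CPM in the 5 libraries highest in *Lcn2*, within a range of 7.25 to 27.7 CPM over all libraries. *Gfap* did not separate these 6 libraries from the rest (555 to 984 against 400.4 to 890 CPM).

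The libraries also split by *Xist*, the RNA of the inactive X chromosome, at 0.570 to 2.40 CPM in 16 libraries and 1439 to 1831 CPM in the other 16, with 4 of each kind in every group. All 6 libraries high in *Lcn2* were among the 16 low in *Xist*, where *Lcn2* ranged from 6.41 to 142 CPM (median 10.4), against 3.97 to 14.9 CPM (median 7.20) in the 16 high in *Xist*. This split was looked at after the values were seen and is given without a test. The labels do not give the sex of the mice. *Ddx3y*, a gene of the Y chromosome, measured 114.9 to 160.1 CPM in the 16 libraries low in *Xist*. In the 16 high in *Xist* it measured 0 to 0.321 CPM. These 2 genes mark the libraries low in *Xist* as male and the others as female. With *Xist* as a covariate, 0 members were called in either mutant and 2 with age, as without it.

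**Figure D5:**
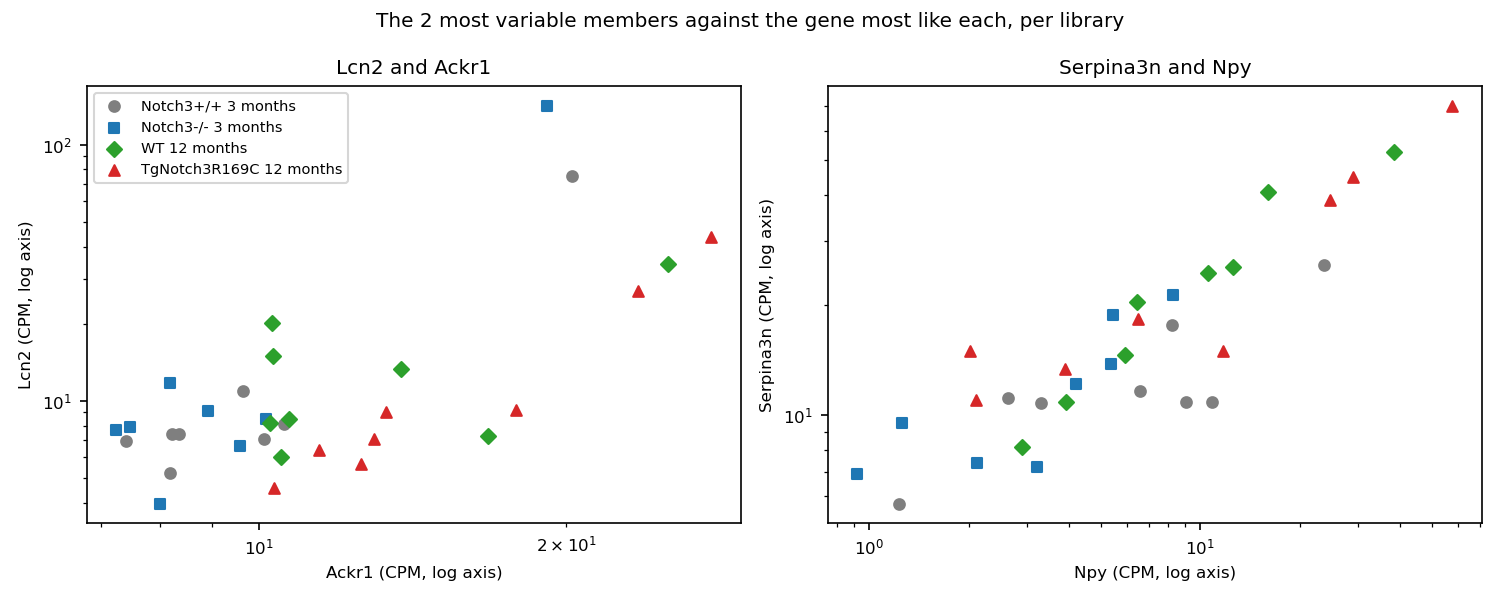
Left, CPM of *Lcn2* against *Ackr1*, and right, CPM of *Serpina3n* against *Npy*, both on log axes, 1 point per library and 1 color and shape per group. Libraries with *Lcn2* of 26.9 CPM or more have *Ackr1* of 19.1 CPM or more, and *Serpina3n* rises with *Npy* in all 4 groups (r = 0.89 after groups were centered).

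Other astrocyte genes were read from lists for comparison. In Notch3-/- mice, 0 of 32 homeostatic genes were called, with 18 higher and 14 lower fitted levels (median log2 fold change 0.04). Of 9 pan-reactive genes, 1 was called, *S1pr3*, a sphingosine 1-phosphate receptor that mural cells also express, whose mean fell from 38.5 CPM in controls to 24.0 CPM (log2 fold change -0.68, SE 0.11, adjusted p = 0.00422 by edgeR). In the same comparison 7 of 8 smooth muscle genes had a lower fitted level and 5 were called (median log2 fold change -0.63), and their summed level was 2083 to 3722 CPM in Notch3+/+ and 1435 to 2209 CPM in Notch3-/- mice, with none at 0. The part of smooth muscle transcripts in the fall of *S1pr3* was not tested. None of the 12 tested genes induced by inflammation, the 11 induced by ischemia, the 17 of regulators and the STAT3 pathway, or the 10 of the endfoot complex was called. In TgNotch3R169C mice 0 genes of these 6 lists were called, with medians between -0.002 and 0.087. *S1pr3* was the 1 gene of these 6 lists whose change differed between the 2 mutants (difference 0.64, SE 0.15, adjusted p = 0.0368). This call was lost in 16 of 32 fits that left out 1 library. Of the 8 smooth muscle genes 1 was also called for this difference, in the same direction.

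With age, 2 genes of these lists were called higher and 11 lower. Of all 17643 genes tested, 3.87% were called higher and 4.05% lower. Of the 32 homeostatic genes 2 were called higher, *Slc7a10*, an amino acid transporter of astrocytes (30.2 against 6.90 CPM), and *Slco1c1*, a thyroid hormone transporter (105 against 41.7 CPM), and 3 lower. In the 4 choroid-rich WT libraries *Slc7a10* measured 34.01 to 75.1 CPM and *Slco1c1* 102 to 266 CPM. In the other 4 WT libraries *Slc7a10* measured 5.82 to 9.44 CPM and *Slco1c1* 42.7 to 53.9 CPM, as in Notch3+/+ mice (4.78 to 9.50 and 32.7 to 55.3 CPM). Of the genes called lower, *Gja1*, which encodes connexin 43, measured 580.3 to 710.0 CPM in Notch3+/+ mice and 454.5 to 564 CPM in WT mice (log2 fold change -0.42, SE 0.05, adjusted p = 0.000338 by edgeR), without overlap, and *Gjb6*, connexin 30, had a log2 fold change of -0.21 (adjusted p = 0.0134). *Htra1*, a secreted protease, measured 208.7 to 262 CPM in Notch3+/+ mice, 146 to 177 CPM in the choroid-rich WT libraries, and 172 to 195 CPM in the other 4 (log2 fold change -0.42, adjusted p = 0.000861). Other genes called lower were *Srgn* and *Fbln5* of the 12 inflammation-induced genes, *Tm4sf1*, *Emp1*, and *S100a10* of the 11 ischemia-induced genes, *Nfib* and *Lifr* of the 17 regulators, and *Lama2*, a laminin chain, of the 10 endfoot genes, with log2 fold changes from -0.41 to -0.19. Several of these are also expressed by endothelial, mural, or fibroblast-like cells, and smooth muscle genes were lower in the same comparison. None of the 9 pan-reactive genes was called.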

How the data were processed

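Brain arteries were dissected under a stereomicroscope and frozen, and per the labels poly(A)-selected stranded libraries were made from 150 ng of total RNA. The table deposited by the authors gives whole read counts for 55357 Ensembl identifiers, not normalized, and 16744 of them were at 0 throughout. The submitters' processing notes name the mm39 build, bcl2fastq 2.20.0.422, cutadapt 1.10, Bowtie2 2.2.8, STAR 2.5.3a, and HTSeq 0.6.1p1. The strand setting of the counting is not given in the sources used here, so reads of antisense genes could be included. All columns were matched to a library by name, and 52081 identifiers were given a symbol.

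The counts were fitted with edgeR 4.0.16 under R 4.3.3 (TMM, filterByExpr, glmQLFit, and glmQLFTest), 2 groups at a time, and all 4 groups for the difference between mutants. P values were adjusted by the Benjamini-Hochberg method over all genes tested, and a gene was called at an adjusted p under 0.05. DESeq2 1.42.0 and limma voom (limma 3.58.1) were alternatives, beside other normalization, no filter, a replicate block, covariates, and leaving out each library. Levels are CPM from TMM over all libraries, and a pseudocount of 0.1 CPM was used for log2 values. Exon lengths came from GENCODE vM21 (GRCm38), another build than that of the counts, and were used for levels per kilobase only. Correlations used 100000 permutations within groups. Promoter sequences are from RefSeq (GRCm38.p6), and protein sequences were not used here.

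On simulated data with 200 changed genes, a log2 change of 1 was recovered for 80% of the genes in the Notch3-/- comparison, 78% in the TgNotch3R169C comparison, and 81% in the age comparison. For a change of 0.5 these shares were 45%, 55%, and 59% (17581, 17623, and 17498 genes). For the difference between mutants 73% were recovered at 1 and 43% at 0.5 (18427 genes). False calls made up 5.69% of the calls for that difference and 1.48% to 3.45% in the other comparisons.

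The members and lists were chosen with earlier results of these data known. Named genes are the members, the genes of 16 lists, and for each member the 3 genes most like it by group-centered correlation. A gene of the oligodendrocyte list is not reported here, and the list was used without it. The choroid-rich libraries, the olfactory genes, the split by *Xist* and *Ddx3y*, and the DESeq2 fit without outlier replacement were chosen after seeing the data. Libraries of a group differed by 10.9 to 147.9 times the counting noise, so none was a duplicate. The study gives 8 mice for each genotype, which equals the number of libraries in a group, so a library was taken as 1 mouse.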

Additional observations from a re-analysis of the deposited data

Results flagged for a closer look

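In 3 of the 40 combinations of a member and a group, 1 library stood apart from the other 7 by Dixon's criterion at the 95% level, where chance alone gives about 2. *Lcn2* measured 75.6 CPM in Notch3+/+ replicate 3, a gap of 0.919 of the range of its group, and 142 CPM in Notch3-/- replicate 3, a gap of 0.944. *Vim* measured 1251 CPM in Notch3-/- replicate 1, a gap of 0.609 of the range, and the other 7 libraries held 781 to 965 CPM.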

How the results depend on the processing

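Across the alternatives and the fits that left out 1 library, 0 members were called in either mutant comparison or for the difference between mutants. With age, the number of members called was 1 in place of 2 without the filter on low counts (*Aldh1l1*), with all 4 groups in one fit (*S100b*, with *Aldh1l1* at an adjusted p of 0.0551), with the replicate block (*Aldh1l1*), with the neuron list as a covariate (*Aldh1l1*), and without the choroid-rich libraries (*Aldh1l1*), and it was between 1 and 2 when 1 library was left out. DESeq2, which also called *Lcn2*, gave the highest number, 3. Leaving out libraries reduced the samples, dropping the filter raised the number of genes tested, and the fit of all 4 groups used more samples. The cause of the changes was not tested. The replicate numbers were not taken to pair the libraries, since same-numbered libraries had correlations of -0.147 to 0.346 at 3 months and -0.26 to 0.427 at 12 months and 4 of 16 correlated best with their own number. The replicate block moved the genes called from 20 to 6 in TgNotch3R169C mice and from 1398 to 715 with age, and DESeq2 called 280, 74, 2365, and 153 genes for Notch3-/- mice, TgNotch3R169C mice, age, and the difference, where edgeR called 115, 20, 1398, and 65.

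Of the members' log2 fold changes under alternatives other than leaving out a library, 365 kept direction and side of the threshold, 5 kept direction but lost the call, and 20 changed sign, nearly all of them close to 0 or of *Lcn2* and *Serpina3n*. In Notch3-/- mice *Aldoc* was 0.00203 without the filter, 0.0177 with limma voom, and 0.0204 with the replicate block, where *Vim* was -0.000142. In TgNotch3R169C mice *Lcn2* was -0.176 with limma voom, -0.22 with the block, and -0.153 with *Xist* as a covariate, *Aldoc* was -0.0175 and *Serpina3n* -0.116 with the neuron covariate, and *Aldh1l1* was -0.0373, *S100b* -0.00949, and *Serpina3n* -0.232 without the choroid-rich libraries. With age *Lcn2* was 0.846 with DESeq2, 0.236 with limma voom, 0.307 with the block, and 0.112 with the neuron covariate, and *Slc1a2* was 0.0239 and *Slc1a3* 0.0511 without the choroid-rich libraries. For the difference between mutants *Slc1a2* was -0.00313 with the neuron covariate and *Serpina3n* -0.209 without the choroid-rich libraries.

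Leaving out 1 library moved the members' median log2 fold change between 0.007 and 0.094 in Notch3-/- mice, 0.095 and 0.205 in TgNotch3R169C mice, and 0.091 and 0.224 with age, and changed the sign of 40 of 800 values. In Notch3-/- mice the ranges were -0.032 to 0.102 for *Gfap*, -0.0536 to 0.0477 for *Vim*, -0.0192 to 0.109 for *Aqp4*, -0.0776 to 0.124 for *Aldoc*, -0.264 to 0.117 for *Serpina3n*, and -1.02 to 1.71 for *Lcn2*. In TgNotch3R169C mice they were -0.0354 to 0.0596 for *Aldh1l1*, -0.0232 to 0.0576 for *S100b*, -0.129 to 0.454 for *Serpina3n*, and -0.511 to 0.337 for *Lcn2*. With age they were -0.241 to 0.0669 for *Slc1a2* and -0.53 to 0.889 for *Lcn2*, and for the difference between mutants -0.0472 to 0.251 for *Slc1a2*, -0.103 to 0.0364 for *Aldh1l1*, -0.0315 to 0.563 for *Serpina3n*, and -1.7 to 1.02 for *Lcn2*.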
